A study of Rattus norvegicus with 17 samples.

Results

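The peaks of Brg1 were set against those of Olig2 in rat oligodendrocyte precursor cells (OPC), the dividing glial cells that give rise to the myelinating oligodendrocytes. The peaks were those of the deposited Brg1 and Olig2 lists of OPC: 452 Brg1 peaks and 21901 Olig2 peaks, together 22353 of the 189320 peaks in the 17 lists of the series. The series mapped 6 targets by chromatin immunoprecipitation with sequencing (ChIP-seq) in OPC, immature (iOL) and mature oligodendrocytes (mOL), each as 1 library, and the RNAPII lists at hand were those of OPC and iOL. The cells of both lists were wild-type primary OPC of Sprague-Dawley rats, taken from the cortex at postnatal day 2, and their label was mitogen treatment. The growth medium of the protocol held PDGF-AA at 10 ng/ml and bFGF at 20 ng/ml. The Brg1 and Olig2 lists of iOL and mOL, used for a few values, came from wild-type cells of the same strain labelled as T3 treatment, and the differentiation medium held thyroid hormone T3 at 15 nM and ciliary neurotrophic factor at 10 ng/ml. That protocol text calls the isolated cells iOL, so the stage used here is that of the sample labels. OPC libraries of H3K27Ac, H3K4me3, H3K9me3 and RNA polymerase II (RNAPII) from cells of the same description were used to describe the sites. Whether the cells express OPC marker genes was not checked, because no gene annotation in rn4 coordinates was used.

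Brg1, encoded by Smarca4, is the ATPase of the BAF complex, which uses ATP to slide or evict nucleosomes and has no strong sequence preference of its own. Olig2 is a basic helix-loop-helix transcription factor that binds E-box motifs, is needed to specify the oligodendrocyte lineage and stays on in its precursors. H3K27Ac marks active enhancers and promoters, H3K4me3 marks promoters, and H3K9me3 marks silenced chromatin.

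Each list comes from 1 library and gives positions in build rn4 with no score, so no test between Brg1 and Olig2 was made, and the read depth is unknown. A peak that is absent from the short Brg1 list may be unbound or bound below the level that was called, and the lists do not tell these apart. Percentages are followed by exact Clopper-Pearson 95% intervals, and medians by 95% intervals from ranked values. Both treat peaks as independent, cover counting error of these lists alone and say nothing of the spread between cultures.

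The first question was how closely the peaks of the factors coincide where they meet. Brg1 and Olig2 formed 457 pairs of peaks that share at least 1 bp, made of 433 Brg1 peaks and 456 Olig2 peaks. This is 95.8% of the Brg1 list and 2.08% of the Olig2 list. Of these Brg1 peaks, 409 met 1 Olig2 peak and 24 met 2. In the reverse direction a single Olig2 peak met 2 Brg1 peaks, and in 407 pairs each peak had no other partner.

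The distance between the centres of paired peaks is limited by the overlap rule, and no reference distance for peaks of this width was computed. The median distance was 132.5 bp (120 to 150), and the middle 50% of pairs lay between 65.5 and 243 bp. Centres were within 50 bp in 87 pairs, within 100 bp in 180 pairs (39.4%, 34.9 to 44.0) and within 200 bp in 306 pairs (67.0%, 62.4 to 71.3). Brg1 lay to the right of Olig2, at the higher coordinate, in 209 pairs and to the left in 248, a left share of 54.3% (49.6 to 58.9). Without a strand for each site this direction has no biological axis. Where each peak had a single partner the median was 124.5 bp (107.5 to 136.5). In the 50 pairs in which a peak had 2 partners it was 548 bp (423 to 713.5), and these gave 26 of the 40 pairs with centres over 500 bp apart. With the narrower Olig2 peaks of iOL in place of those of OPC, the median distance from OPC Brg1 was 148.5 bp.

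**Figure D1:**
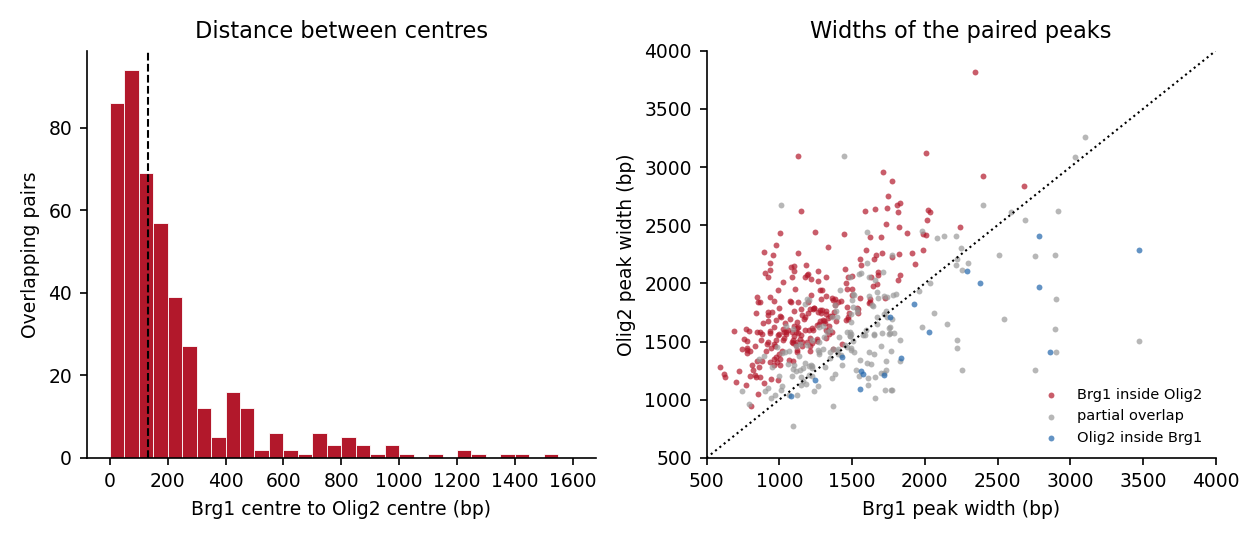
Left, histogram of the distance in bp between Brg1 and Olig2 centres over the 457 overlapping pairs in OPC, with the median of 132.5 bp as a dashed line. Right, Brg1 width against Olig2 width in bp for the same pairs, coloured by how the peaks overlap; the dotted line marks equal widths, and Olig2 was wider in 361 pairs.

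Brg1 peaks mostly sat inside the Olig2 peaks they met. In 253 pairs (55.4%, 50.7 to 60.0) the Brg1 peak lay wholly within the Olig2 peak, in 17 the Olig2 peak lay within the Brg1 peak, and in 187 the overlap was partial. The Brg1 centre fell inside the Olig2 peak in 431 pairs, and the Olig2 centre inside the Brg1 peak in 436. A median of 1211 bp (1171 to 1248) was shared, and Brg1 covered a median of 75.3% (73.6 to 77.1) of the Olig2 peak. Over all pairs the median width was 1319 bp for Brg1 and 1629 bp for Olig2. Width of one peak went with that of its partner, with a Spearman rho of 0.53 across the 407 pairs with single partners. These pairs share their sequence and mappability, and the value is a description across sites.

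The named pairs show both ends of this range. The nearest centres were 0.5 bp apart, where the 1320 bp Brg1 peak at chr13:110682680-110683999 lay within a 1761 bp Olig2 peak. At chr2:170822625-170823464 and chr3:25157428-25158607 the distance was 1 bp. The farthest was 1513.5 bp, at chr7:113874199-113875386, where Brg1 shared only 14 bp with an Olig2 peak and met a second one. The distances of 1409 bp at chr8:43989855-43993327 and 1373 bp at chr8:122581958-122583655 also belonged to Brg1 peaks that met 2 Olig2 peaks. The widest Brg1 peaks with Olig2 were the 3473 bp peak just named on chromosome 8, a 3100 bp peak at chr4:49193805-49196904 and a 3035 bp peak at chr5:123341439-123344473, and all 3 met H3K27Ac. Just inside the overlap rule, the smallest overlap was 2 bp, at chr10:80329982-80331045. Just outside it, Brg1 peaks lay 110 and 145 bp from the nearest Olig2 peak.

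As lists, Brg1 and Olig2 of OPC had similar widths, with medians of 1282.5 bp (1229 to 1337) for Brg1 and 1312 bp (1307 to 1316) for Olig2. The narrowest peak was 572 bp in the Brg1 list and 703 bp in the Olig2 list, and the widest were 3473 and 4037 bp. Brg1 peaks differed among themselves in what they met. In 3 groups of equal size by Brg1 width, Olig2 was met by 92.0% (86.4 to 95.8) of the narrowest 150 peaks, 96.0% (91.6 to 98.5) of the middle 151 and 99.3% (96.4 to 99.98) of the widest 151. H3K27Ac was met by 46.7% (38.5 to 55.0), 68.9% (60.8 to 76.2) and 89.4% (83.4 to 93.8) of the same groups. Where Olig2 was met, the median distance to the nearest Olig2 centre was 101.75 bp in the narrowest group, 101 bp in the middle one and 177.25 bp in the widest.

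The next question was which of the many Olig2 sites held Brg1. The Brg1 list is sorted by position, so its order carries nothing else. The Olig2 list is not, and its peaks become narrower from top to bottom, with a Spearman rho of -0.50 between place and width. The labels do not say what its order stands for. Brg1 was found mainly near its top. The median place of Olig2 peaks with Brg1 was 3130.5 of 21901 (2719 to 3584), against 11126 (10979 to 11271) for those without.

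The fall along the file was steady over its upper part. Brg1 was held by 71 of the first 452 Olig2 peaks (15.7%, 12.5 to 19.4) and by 172 of the first 10% (7.85%, 6.76 to 9.06). The second 10% gave 4.93% (4.06 to 5.92), and the last 10% gave 6 of 2191 peaks (0.274%, 0.101 to 0.595), against 2.08% over the whole list. The first 50% of the file held 400 of the 456 Olig2 peaks with Brg1. Even among its first 452 peaks most had no called Brg1.

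**Figure D2:**
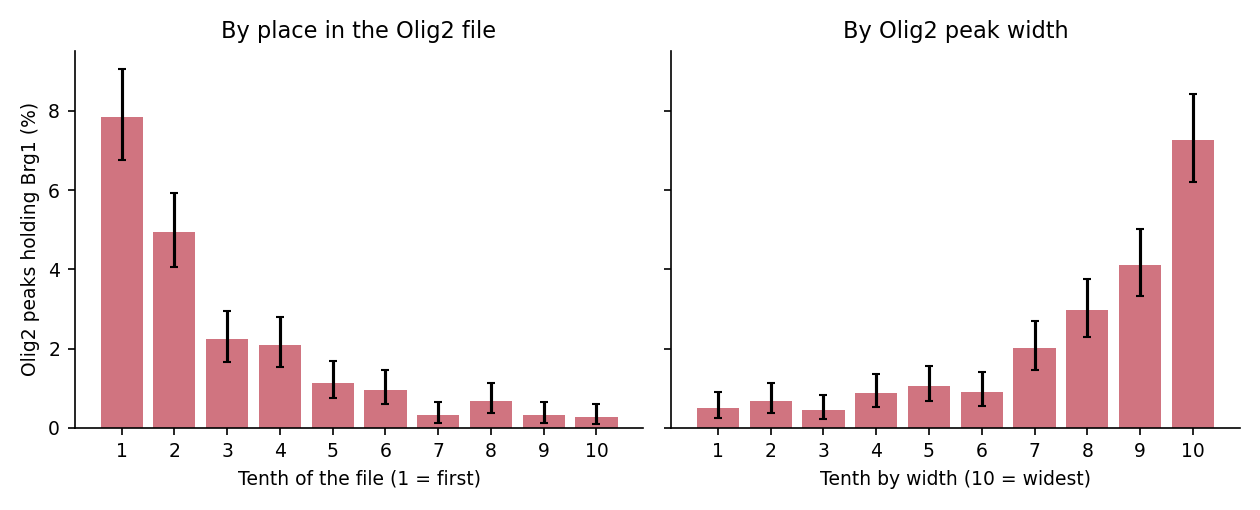
Share of Olig2 peaks of OPC that hold a Brg1 peak, by 10% classes of place in the deposited Olig2 file (left, the first class being the top) and of Olig2 width (right, the last being the widest); bars are percentages and error lines exact 95% intervals. The share was 7.85% in the first class of the file and 7.26% in the widest class.

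Olig2 peaks with Brg1 were also wider, with a median of 1628.5 bp (1588 to 1690) against 1307 bp (1303 to 1312) without. Width and place go together, and weighted to the file places of the sites with Brg1 the median without was 1462 bp. The widest 10% of Olig2 peaks held Brg1 in 7.26% (6.21 to 8.42) of cases and the narrowest 10% in 0.502% (0.251 to 0.897). Where the widest 10% and the first 10% of the file coincided, 87 of 649 peaks held Brg1 (13.4%, 10.9 to 16.3). A wider peak has more bp in which to meet another. With both factors reduced to the middle 200 bp of each peak, Olig2 peaks with Brg1 still came from wider peaks, with medians of 1615.5 bp with Brg1 and 1308 bp without.

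Brg1-bearing Olig2 peaks were spread over the genome much as the Olig2 list was. On the 20 autosomes Brg1 was held by between 1.10 and 2.97% of Olig2 peaks, with a median of 2.12%. Chromosome X gave 3 of 485 (0.619%, 0.128 to 1.80), below each of the 20, with an interval that overlaps those of all autosomes except chromosomes 6 and 18. Brg1 peaks were far from each other, at a median of 1214990 bp to the nearest other one, and only 6 of 452 had another within 10 kb.

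Olig2 sites can lie in clusters, so other Olig2 peaks with centres within 10 kb were counted at each site. Clusters were more common at sites with Brg1. At least 1 other Olig2 peak was found within 10 kb of 186 of the 456 sites with Brg1 (40.8%, 36.2 to 45.5) and of 5670 of the 21445 without (26.4%, 25.9 to 27.04), where the whole list gave 26.7%. The mean number was 0.513 with Brg1 and 0.323 without. Of the sites with Brg1, 270 had none, 148 had 1, 30 had 2, 6 had 3 and 2 had 4. Of those without, 15775 had none, 4590 had 1, 925 had 2, 124 had 3 and 31 had 4.

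A Brg1 peak that meets 2 Olig2 peaks marks both as sites with Brg1 and with a neighbour, so a ring that leaves such neighbours out was counted too. Beyond the reach of 1 Brg1 peak, at 3.5 to 10 kb, the shares were 28.1% (24.0 to 32.4) with Brg1 and 18.9% (18.3 to 19.4) without. Among acetylated sites these shares were 31.2% (26.2 to 36.6) with Brg1 and 24.9% (23.7 to 26.1) without. Among sites without H3K27Ac they were 20.6% (14.1 to 28.4) with Brg1 and 17.2% (16.6 to 17.8) without, with intervals that overlap. Along the file clustering varied little: among sites without Brg1 a neighbour within 10 kb was found for between 25.03 and 28.8% in each 10% class. With width it varied more, from 21.0% of sites without Brg1 in the narrowest 10% class to 34.2% in the widest. Weighted to the widths of the sites with Brg1, 29.9% of the sites without had such a neighbour, against 40.8% with Brg1. In the widest 10% class the shares were 40.9% (33.2 to 48.9) with Brg1 and 34.2% (32.1 to 36.3) without, with intervals that overlap. In the fifth class they were 56.5% (34.5 to 76.8) of 23 with Brg1 and 25.7% (23.9 to 27.6) without. This window still holds neighbours that share 1 Brg1 peak, and the ring was not weighted to width. The most crowded sites with Brg1 were a pair of overlapping Olig2 peaks at chr2:200964285-200965696 and chr2:200965466-200966957, each with 4 others within 10 kb. A site at chr11:76177025-76178762, place 46 in the Olig2 file, had 3.

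**Figure D3:**
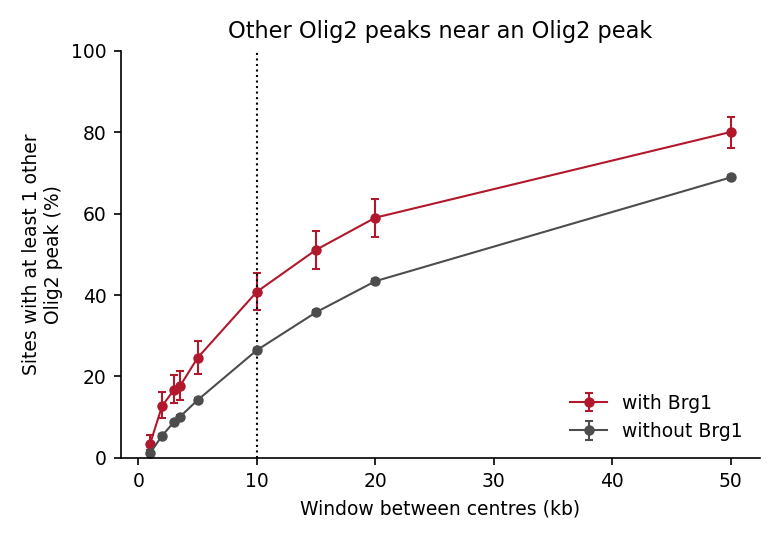
Share of Olig2 sites of OPC that have at least 1 other Olig2 peak, against the window in kb between centres, for the 456 sites with Brg1 (red) and the 21445 without (grey); points are percentages with exact 95% intervals, and the dotted line marks 10 kb. Sites with Brg1 lay above at each window drawn, with 40.8% against 26.4% at 10 kb.

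The sites were then compared in the OPC marks. H3K27Ac was the mark in which they differed most. It was met by 320 of the sites with Brg1 (70.2%, 65.7 to 74.3) and 4706 of those without (21.9%, 21.4 to 22.5), where 22.9% of all Olig2 peaks met it. Since the sites also differ in their place in the file and in width, the shares were then compared within classes of each.

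Within classes of place in the Olig2 file sites with Brg1 were still the more often acetylated. In the first 10% of the file H3K27Ac was met by 70.3% (62.9 to 77.1) of 172 sites with Brg1 and 34.9% (32.8 to 37.0) of 2018 without. In the fourth 10% it was 73.9% (58.9 to 85.7) of 46 with Brg1 and 25.7% (23.9 to 27.7) of 2144 without. Along the file the share without Brg1 fell steadily to 9.98% (8.75 to 11.3) in the last 10%. The share with Brg1 stayed between 66.7 and 77.6% over the first 6 classes, and the later ones hold 15 sites or fewer. When sites without Brg1 were weighted to the file places of those with Brg1, 30.0% of them met H3K27Ac.

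Classes of width brought the groups closer together than classes of place did. In the widest 10% of Olig2 peaks H3K27Ac was met by 86.2% (79.8 to 91.1) of 159 sites with Brg1 and 64.7% (62.6 to 66.8) of 2032 without. In the seventh class by width it was 65.9% (50.1 to 79.5) of 44 with Brg1 and 23.1% (21.3 to 24.9) of 2146 without. Weighted to the widths of the sites with Brg1, the sites without met H3K27Ac in 39.8% of cases, and weighted to width and place together in 38.2%. Sites with Brg1 were higher in each of the 10 classes of either kind, some of which hold few of them.

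**Figure D4:**
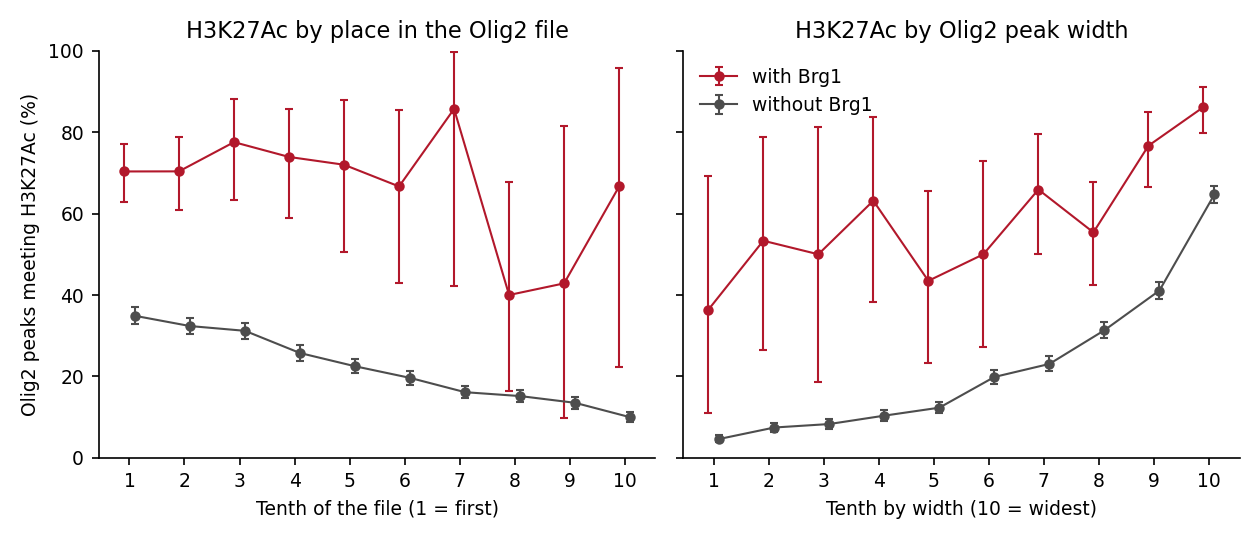
Share of Olig2 sites of OPC that meet H3K27Ac, with Brg1 (red) and without (grey), by 10% classes of place in the Olig2 file (left) and of Olig2 width (right); points are percentages and error lines exact 95% intervals. Red lies above grey in each class, and the red intervals are wide where few sites hold Brg1, such as the 6 in the last class of the file.

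The very top of the Olig2 file differed from what followed. Among its first 452 peaks H3K27Ac was met by 50.7% (38.6 to 62.8) of the 71 with Brg1 and 24.1% (19.9 to 28.8) of the 381 without. In places 453 to 2190 it was met by 84.2% (75.6 to 90.7) of 101 with Brg1 and 37.4% (35.0 to 39.8) of 1637 without. Of the 136 sites with Brg1 and no H3K27Ac, 35 (25.7%, 18.6 to 33.9) were among the first 452, against 36 of the 320 acetylated ones (11.2%, 8.00 to 15.2).

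The acetylation at Brg1 sites was local. The centre of the Olig2 peak lay under H3K27Ac at 61.4% (56.8 to 65.9) of sites with Brg1 and 18.2% (17.7 to 18.7) without, a ratio of 3.38. At 1000 bp to the right the shares were 20.8% with Brg1 and 4.77% without, and at 5000 bp to either side between 1.75 and 1.97% with Brg1 and between 1.63 and 1.64% without. In steps of 100 bp, the share stayed above 50% of its value at the centre out to 800 bp on the left and 700 bp on the right at sites with Brg1, and to 700 bp on either side at sites without. Where H3K27Ac was met, its widest peak at the site had a median of 1287.5 bp (1162 to 1351) with Brg1 and 996 bp (974 to 1025) without, and acetylation covered a median of 76.4% (72.6 to 79.8) of the Olig2 peak with Brg1 and 67.6% (66.0 to 69.1) without. At least 2 H3K27Ac peaks at the site were found in 21.6% (17.2 to 26.5) of acetylated sites with Brg1 and 17.5% (16.4 to 18.6) without. These intervals overlap, and the share over all acetylated sites was 17.7%. Acetylated Olig2 peaks were wider with Brg1, at a median of 1721.5 bp (1673 to 1779) against 1558 bp (1546 to 1571) without. The width, cover and number of H3K27Ac peaks were not compared within classes of Olig2 width.

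**Figure D5:**
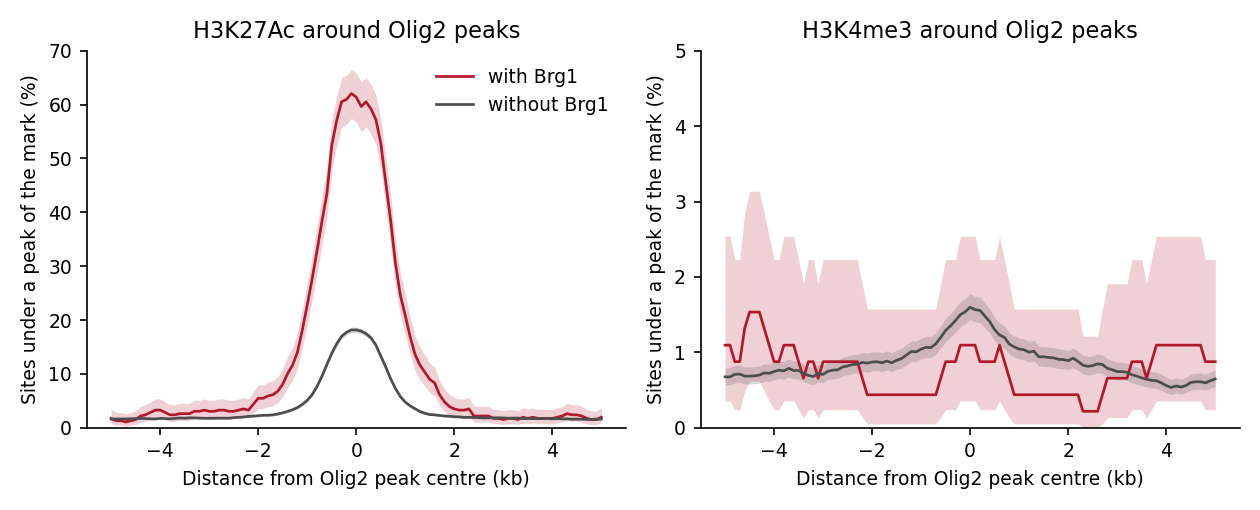
Share of Olig2 sites under a peak of H3K27Ac (left) or H3K4me3 (right) at each distance in kb from the Olig2 centre, in steps of 100 bp, with Brg1 (red) and without (grey); bands are exact 95% intervals, and the vertical scales differ. H3K27Ac reaches 61.4% with Brg1 against 18.2% without at the centre, and the H3K4me3 bands overlap there.

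Brg1 and Olig2 were about equally near the middle of the acetylated stretch. In 220 pairs with single partners and 1 H3K27Ac peak at the Olig2 site, the distance to the H3K27Ac centre had a median of 167.25 bp (142.5 to 190) for Brg1 and 143.75 bp (127.5 to 189.5) for Olig2. Brg1 was the nearer in 48.6% (41.9 to 55.4) of them. The pairs were chosen for their overlap, so their centres lie close together, which limits how far the distances can differ. The widest acetylated peaks at sites with Brg1 were 4730 bp at chr5:22274531-22277369, 4282 bp at chr1:173886400-173888943 and 3984 bp at chr1:175611230-175612453, where the coordinates are those of the Olig2 peaks.

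Olig2 peaks more than 1000 bp from a Brg1 peak were acetylated less often than those that met Brg1. Olig2 peaks that missed a Brg1 peak by up to 1000 bp met H3K27Ac in 12 of 21 cases (57.1%, 34.0 to 78.2), an interval that holds the share at sites with Brg1. It was met by 27.5% (18.1 to 38.6) of the 80 at 1001 to 5000 bp and 33.0% (23.9 to 43.1) of the 100 at 5001 to 10000 bp. At 10001 to 50000 bp it was 32.9% (29.2 to 36.9) of 598, and beyond 1000000 bp 21.2% (20.6 to 21.9) of 14590. Peaks at 1001 to 5000 bp had a median place of 12253.5 in the file, near its middle. Their median width was 1336.5 bp, against 1628.5 bp for Olig2 peaks that met Brg1 and 1304 bp for those beyond 1000000 bp. The shares by distance were not compared within classes of width or place.

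H3K4me3 was rare at Olig2 sites with and without Brg1, with shares whose intervals overlap. It was met by 8 of the 456 (1.75%, 0.760 to 3.43) and by 566 of the 21445 without (2.64%, 2.43 to 2.86), with 2.62% over all Olig2 peaks. Weighted to the widths of the sites with Brg1, the share without was 3.64%, just above the interval with Brg1. Weighted to their file places it was 1.93%, and to both 2.36%, each within that interval. An H3K4me3 peak lay within 10 kb of 10.1% (7.48 to 13.2) of sites with Brg1 and 10.1% (9.69 to 10.5) without, and the median gap to the nearest was 106486 bp with Brg1 and 106299 bp without. When acetylated and other sites were taken apart, those with Brg1 had the larger median gap in each. Acetylated sites with Brg1 lay a median of 95361 bp (77900 to 111909) from H3K4me3, against 51825 bp (48423 to 55284) for acetylated sites without. Among sites without H3K27Ac the medians were 155269 bp (124859 to 193877) with Brg1 and 126143 bp (122789 to 129957) without, with intervals that overlap. Sites with H3K27Ac and no H3K4me3, a pattern known at active enhancers, made up 68.6% (64.2 to 72.9) of sites with Brg1 and 19.8% (19.2 to 20.3) without. The widest Olig2 peaks with both Brg1 and H3K4me3 were at chr11:16004567-16007217, the site on chromosome 1 with the 4282 bp H3K27Ac peak, and chr2:82526524-82528529.

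RNAPII was met by 0 of the 456 sites with Brg1, for an exact upper limit of 0.806%, where 3 counts would be 0.658%, and by 13 of the 21445 without (0.0606%, 0.0323 to 0.104), which is 0.0594% of all Olig2 peaks. A difference was not detectable at these counts. The OPC RNAPII list held only 332 peaks, so few meetings could be seen in either group.

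H3K9me3, a mark of silenced chromatin, was rare at both kinds of site but lay within 10 kb more often at those with Brg1. It was met by 3 of the 456 (0.658%, 0.136 to 1.91) and 67 of the 21445 (0.312%, 0.242 to 0.397), with 0.32% over all. Within 10 kb, edge to edge, a peak of this mark was found at 8.11% (5.78 to 11.0) of sites with Brg1 and 3.55% (3.31 to 3.81) without. The shares were 7.50% (4.86 to 11.0) with Brg1 and 5.01% (4.41 to 5.68) without among acetylated sites, and 9.56% (5.19 to 15.8) with Brg1 and 3.14% (2.88 to 3.42) without among the others. In the first 10% of the Olig2 file they were 6.40% (3.24 to 11.2) with Brg1 and 5.55% (4.59 to 6.64) without, and in the rest 9.15% (6.07 to 13.1) with Brg1 and 3.35% (3.10 to 3.61) without. The intervals overlap among acetylated sites and in the first 10% of the file. The 3 sites with Brg1 under H3K9me3 itself were chr6:39851293-39853679, chr6:72996941-72998310 and chr16:83763197-83764493, and the first and the last also met H3K27Ac.

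None of these marks was met by 134 of the sites with Brg1 (29.4%, 25.2 to 33.8) and by 77.3% (76.8 to 77.9) of those without. The 136 sites with Brg1 and no H3K27Ac mostly lay far from an acetylated stretch. Their median gap to the nearest H3K27Ac peak was 69666.5 bp (55648 to 88502), close to the 71054 bp (68598 to 73408) of the 16739 unacetylated sites without Brg1. Within the sites with Brg1, the acetylated ones were the wider, with Olig2 medians of 1721.5 bp (1673 to 1779) against 1487 bp (1427 to 1554) for the unacetylated. Median places in the file were 3049.5 (2579 to 3624) for acetylated and 3398 (2514 to 4201) for unacetylated sites. Paired Brg1 peaks had a median of 1462 bp at acetylated and 1100.5 bp at unacetylated sites.

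The 19 Brg1 peaks without Olig2 were narrower than the 433 with it and met the active marks at other rates. Their median width was 955 bp (813 to 1203), against 1303 bp (1257 to 1360) for those with Olig2. H3K27Ac was met by 7 of the 19 (36.8%, 16.3 to 61.6) and 302 of the 433 (69.7%, 65.2 to 74.0). Among the narrowest 150 Brg1 peaks, with or without Olig2, it was met by 46.7% (38.5 to 55.0), a share within the interval of the 19. Whether width accounts for the difference was not tested. H3K4me3 was met by 4 of the 19 (21.1%, 6.05 to 45.6) and by 6 of the 433 (1.39%, 0.510 to 2.99), so 4 of the 10 Brg1 peaks at this promoter mark lacked Olig2. H3K27Ac without H3K4me3 was met by 3 of the 19 and 68.4% (63.7 to 72.7) of the 433. The nearest Olig2 peak was a median of 19237 bp away, and 6 of the 19 had one within 10 kb. The most distant were chr2:53762103-53763305 at 232900 bp, chr3:116065065-116065958 at 144665 bp and chr13:85636433-85637245 at 92744 bp, and none of these met H3K27Ac. The 4 with H3K4me3 were chr5:123159330-123160370, which lay 110 bp from an Olig2 peak, chr1:44924377-44925183, chr1:267495855-267497656 and chr14:39877372-39878658. These 4 were named after their values had been seen, as their count was small. In the iOL lists 18 of the 19 met a Brg1 peak and 2 met an Olig2 peak. Over all 452 Brg1 peaks of OPC the shares were 99.6% for Brg1 and 86.7% for Olig2.

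The Olig2 list held 25787 peaks in iOL and 2759 in mOL, and the Brg1 list 5465 and 4378. A shorter list can meet fewer sites, so the shares below do not measure loss or gain between stages. In iOL, 90.4% (87.3 to 92.9) of the Olig2 sites with Brg1 in OPC met an Olig2 peak again. Among those without it was 71.2% (70.6 to 71.8), and over all Olig2 sites of OPC 71.6%. In mOL it was 34.0% (29.7 to 38.5) with Brg1, 10.9% (10.5 to 11.3) without and 11.3% over all. A Brg1 peak of iOL was met by 98.5% (96.9 to 99.4) of the Olig2 sites with Brg1 in OPC, 17.5% (16.9 to 18.0) of those without and 19.1% of all. One of mOL was met by 66.9% (62.4 to 71.2) with, 11.5% (11.0 to 11.9) without and 12.6% of all. Sites with Brg1 were also wider and nearer the top of the Olig2 file. The shares in later lists were not compared within classes of width or place.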

How the data were processed

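ChIP-seq peaks of 17 libraries were deposited by the authors as 3 columns per file, chromosome, start and end, in base pairs, with no header, score or p-value. Fragment libraries were made for SOLiD sequencing, per the labels' protocols, and the submitters' processing notes list MACS 1.4.0 and rn4. Aligner, threshold, control library, pooling and read depth: not given in the sources used here. Samples were grouped by title. Starts were made 1-based. Overlap meant at least 1 bp in common, centres were midpoints, neighbours were counted between centres and gaps between edges. Intervals were exact Clopper-Pearson (95%) for shares and binomial order-statistic for medians, and cover counting error only. No test was made with 1 library for each target. Regions named, on assembled chromosomes, were the 3 at the extreme of each measure: widest Brg1 peaks with Olig2, farthest and nearest centres, most Olig2 neighbours, Brg1 farthest from Olig2, widest Olig2 peaks with Brg1 and H3K4me3 or H3K9me3, and widest H3K27Ac. Members, lists and alternatives were chosen with earlier results of these data known. Alternatives were 10 listed settings and 3 more that were chosen after seeing the data (a ring of neighbours, weighting to file order, weighting to file order and width). No rn4 genome was at hand, so sequences and genes are not given. Python 3.11.15, numpy 2.4.6, pandas 2.3.3, scipy 1.17.1 and matplotlib 3.10.9 were used. Overlap counts equalled those of bedtools 2.31.1, and the functions were tested on simulated lists.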

Additional observations from a re-analysis of the deposited data

How the results depend on the processing

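Of 96 recomputed values, 54 stayed within the 95% interval of the reported one and 42 moved outside it. Olig2 sites with Brg1 were the wider in each of 8 settings, more often neighboured in 13, more often acetylated in 10, under wider H3K27Ac peaks in 7 and higher for H3K4me3 in 0 of 10, the reported setting included. With the middle 200 bp of each factor peak, Brg1 met Olig2 in 67.7% and Olig2 met Brg1 in 1.397% of cases, at a centre distance of 88 bp, which this setting limits by construction. Sites with Brg1 had a neighbour in 34.0%, H3K27Ac was met by 63.4% with and 20.4% without Brg1, and the H3K27Ac width was 1049 bp without. H3K4me3 was met by 0.654% (0.0793 to 2.34) with Brg1, an interval that holds the 1.77% without. With the wider 50% of each factor list, the centre distance was 153.5 bp, Olig2 width 1845 bp with and 1520 bp without Brg1, neighbours 29.4% with and 19.4% without, H3K27Ac 87.2% with and 36.0% without, H3K4me3 3.21% without, and H3K27Ac width 1473.5 bp with and 1078 bp without. Merging Olig2 peaks gave a width of 1696 bp with Brg1, and neighbours at 33.5% with and 24.1% without. An overlap of 50% of the shorter peak gave H3K27Ac 21.4% and H3K4me3 1.95% without Brg1, and peaks within 1000 bp gave 23.2 and 3.496% without. Against the iOL Olig2 list, 86.7% of Brg1 peaks met Olig2. Neighbours were 24.6% with and 14.2% without at 5 kb, 59.0% with and 43.4% without at 20 kb, and 28.1% with and 18.9% without at 3.5 to 10 kb. Weighting sites without Brg1 to width gave neighbours 29.9%, H3K27Ac 39.8% and H3K4me3 3.64%. Weighting to file order gave Olig2 width 1462 bp, H3K27Ac 30.0% and H3K4me3 1.93%. Weighting to both gave neighbours 28.3%, H3K27Ac 38.2% and H3K4me3 2.36%. Beyond what the settings themselves fix, the cause of each move was not tested. Read depth is unknown, and the short Brg1 and RNAPII lists limit what can be seen. No paired analysis was possible because each target and stage has 1 library.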
